A study of Homo sapiens with 8 samples.

Results

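The 10 long noncoding RNAs described here were MALAT1, NEAT1, MEG3, MIAT, TUG1, OIP5-AS1, GAS5, SNHG1, DANCR and ZFAS1, out of 56303 genes in the count table. They were chosen by name as RNAs that are usually abundant, with earlier results of these data known. All 10 passed the filter on low counts. SK-N-BE(2) is a human neuroblastoma cell line with an amplified MYCN gene. Cells carried either a non-targeting shRNA (sh-NC) or one aimed at METTL14 (shMETTL14), a subunit of the nuclear complex that writes N6-methyladenosine (m6A) on RNA. Each arm had 2 replicates, and each replicate gave a library of polyadenylated, fragmented RNA (input) and a library of the fragments bound by an anti-m6A antibody (IP), 8 libraries in all. The model is a single cell line, which of the designed METTL14 shRNAs was used is not given in the sources used here, and nothing in the labels says whether the replicates were separate cultures, so the p-values measure the spread between these samples only, which may be technical.

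Long noncoding RNAs are spliced or unspliced RNA polymerase II transcripts without a long conserved reading frame. MALAT1 and NEAT1, neighbouring genes, stay in the nucleus, MALAT1 in nuclear speckles and NEAT1 as the scaffold of paraspeckles, and MALAT1 carries well known m6A sites. MEG3, an imprinted RNA with growth-restraining activity, and MIAT are also held in the nucleus. GAS5, SNHG1, DANCR and ZFAS1 are host genes, whose introns release small nucleolar RNAs (snoRNAs) that guide modification of ribosomal RNA while the spliced exons are exported, meet ribosomes and are often destroyed by nonsense-mediated decay. TUG1 and OIP5-AS1, an RNA known for binding proteins and microRNAs, are found in both compartments.

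METTL14 itself, the check of the labels, stood at 49.5 and 48.8 CPM (counts scaled to library size by 1000000 and TMM factors) in the sh-NC inputs and at 13.7 and 14.6 CPM in the shMETTL14 inputs, a log2 change of -1.79 (SE 0.0663, edgeR adjusted p = 1.28e-15). Library totals ran from 32027379 to 47205265 counts. Neuroblast markers were present, 9 of 9 at 1 CPM or more in every input, with summed levels of 5714 to 5947 CPM in sh-NC and 6015 to 6096 CPM in shMETTL14. Of 8 mesenchymal markers 7 reached that level, with sums of 546 to 552 CPM in sh-NC and 494 to 496 CPM in shMETTL14 and PRRX1 at 0.766 CPM at most. Of 6 immune and endothelial markers 2 did, CD68 and VWF, with sums of 18.6 to 22.7 CPM and 14.3 to 16.2 CPM, and CD3E and PECAM1 stayed at or near 0. The marker sums of the arms did not overlap. The calls that follow are to be read against 11.7% of all genes tested that rose in the input and 12.3% that fell. Within the neuroblast list, whose sum is mostly MYCN (4224 to 4452 CPM, not called), 6 of 9 markers rose after knockdown and edgeR called 0 lower (0 at an unadjusted p under 0.05 and 0 by DESeq2), with TH at a log2 change of 1.03 and DBH at 0.84, both enzymes of noradrenaline synthesis. Of the mesenchymal markers 2 rose (1 by DESeq2), PRRX1 (1.53, from 32 counts at most) and COL3A1 (0.14), and 4 fell, among them COL1A1 (-0.67) and SNAI2 (-0.57), while CD68 of the last list fell by 0.43. The part of these shifts in the input changes below, such as those of MEG3 and MIAT, was not tested.

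The members whose RNA level moved most after knockdown were MEG3 and MIAT, which rose, and OIP5-AS1, which fell, so their RefSeq promoters are shown, each as the plus strand of GRCh38.p14 from 250 bases before to 50 bases after the annotated start. Capitals mark the motifs that were searched on both strands, namely CACGTG as the E-box, GGGCGG as the GC box, the letters CCAAT known as the box of that name, then TATAAA for the promoter element of the same name, TGACGTCA for the full cAMP response element (CRE) and finally TGACG for its core, which lies inside the full element. The MEG3 window was chr14:100825858-100826157, inside the gene span of the count table, the MIAT window chr22:26646179-26646478 and the OIP5-AS1 window chr15:41283740-41284039. For MEG3 this is 1 of 3 promoter entries, its start lies 46698 bases from the gene start of the count table, and the others are not shown.
MEG3: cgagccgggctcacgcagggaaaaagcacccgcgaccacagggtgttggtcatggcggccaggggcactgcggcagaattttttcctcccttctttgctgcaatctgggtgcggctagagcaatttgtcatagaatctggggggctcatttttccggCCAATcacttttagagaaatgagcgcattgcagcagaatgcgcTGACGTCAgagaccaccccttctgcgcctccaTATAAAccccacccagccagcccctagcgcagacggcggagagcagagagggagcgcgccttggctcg
MIAT: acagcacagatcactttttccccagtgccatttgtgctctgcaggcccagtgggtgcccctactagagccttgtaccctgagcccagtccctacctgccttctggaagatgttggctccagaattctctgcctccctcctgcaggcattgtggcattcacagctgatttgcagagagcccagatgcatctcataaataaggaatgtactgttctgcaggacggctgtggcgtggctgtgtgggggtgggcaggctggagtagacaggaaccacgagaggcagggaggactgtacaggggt
OIP5-AS1: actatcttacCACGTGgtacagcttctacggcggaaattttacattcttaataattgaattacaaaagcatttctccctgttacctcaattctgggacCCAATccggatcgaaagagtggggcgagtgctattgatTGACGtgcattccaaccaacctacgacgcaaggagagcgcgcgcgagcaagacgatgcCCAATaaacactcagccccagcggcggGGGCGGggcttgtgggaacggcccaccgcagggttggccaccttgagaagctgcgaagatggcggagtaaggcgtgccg
With the annotated first base counted as 0, MEG3 held CCAAT at -93, TGACGTCA at -50 and TATAAA at -18. Of 35116 promoters of the same length 1.85% held the full CRE, 11.5% the letters TATAAA and 34.6% a CCAAT box. OIP5-AS1 held CACGTG at -240 (7.26% of promoters), CCAAT at -152 and -56, TGACG at -114 (24.6% of promoters) and GGGCGG at -29 (45.0% of promoters). MIAT held none of these letter strings in its window. A match is a description of letters and does not say that a factor bound there.

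MALAT1 was by far the most abundant member per length. Its input level in sh-NC was 406 and 402 CPM per kilobase of exons, more than the level of 99.6% of 22245 genes tested. It took 0.326 to 0.368% of all input reads and 0.465 to 0.567% of IP reads, and ranked between the 7th and 13th most counted gene of a library. The other members followed in the order ZFAS1 at 34.6, GAS5 at 21.9, NEAT1 at 18.0, TUG1 at 15.3, SNHG1 at 14.1, MEG3 at 10.5, OIP5-AS1 at 9.87, MIAT at 5.99 and DANCR at 2.64 CPM per kilobase (means of 2 sh-NC inputs). Each step of that order was larger than the spread between replicates, since the replicate values of neighbours did not overlap, although 2 replicates give little hold on that spread. The order also rests on the annotated exonic length, along which reads were uneven. A 159-base stretch of NEAT1, which has 22767 exonic bases, held 15.0 times the reads per kilobase of the whole gene. In ZFAS1, which has 2243 exonic bases and follows MALAT1 in the order, stretches of 87 and 93 bases held 16.0 and 10.6 times. How far the order depends on these lengths was not tested. The median of all genes tested was 2.86 CPM per kilobase, so 9 members lay above it. DANCR, at 2.64 and 2.63, lay below it with 48.3% of genes under it. By this measure, which divides by all 2285 exonic bases annotated for DANCR, the data go against calling it well expressed. Whether a shorter length would place it above the median was not tested.

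**Figure D1:**
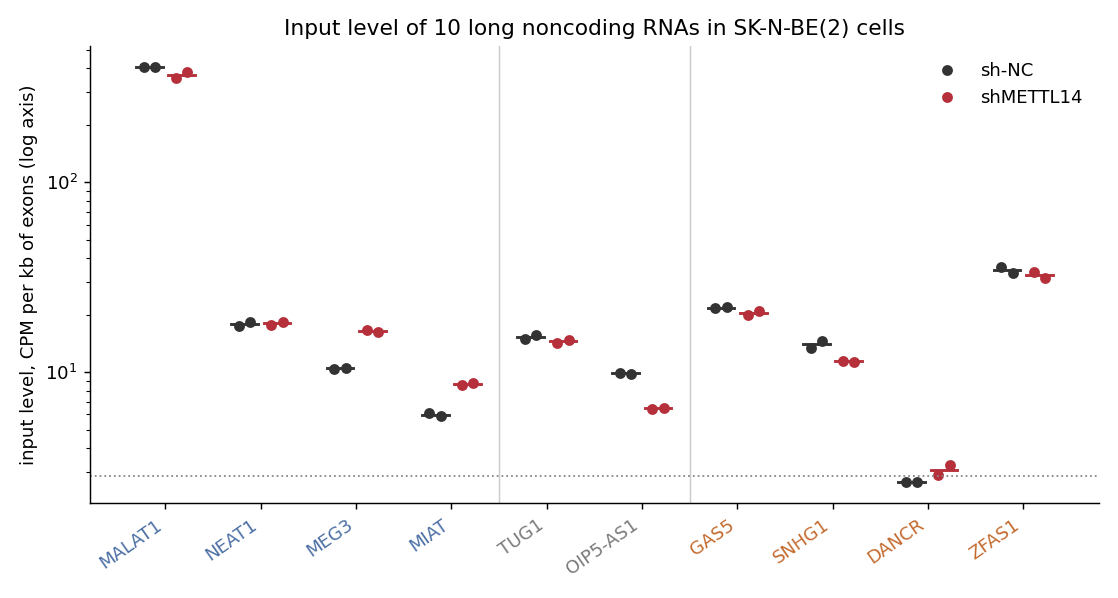
Input level (CPM per kilobase of exons, log axis) of the 10 long noncoding RNAs in each input library. Points are replicates of sh-NC (black) and shMETTL14 (red), short bars are means, the dotted line is the median of all genes tested in sh-NC (2.86), and name colours mark nuclear-retained RNAs (blue), RNAs of both compartments (grey) and snoRNA hosts (orange). MALAT1 lies at 404 in sh-NC, ZFAS1 follows at 34.6, and DANCR sits beside the dotted line.

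After METTL14 knockdown 2 of the 10 members rose in the input, 3 fell and 5 did not pass the test, against 11.7% of all genes tested that rose and 12.3% that fell. MEG3 stood at 165.0 and 165.4 CPM in sh-NC and, after knockdown, at 262.5 and 258.2 CPM. Both knockdown replicates were far above both controls, a rise of 1.58-fold (log2 0.66, SE 0.0353, edgeR adjusted p = 8.76e-13). MIAT stood at 69.9 and 67.9 CPM in sh-NC and, after knockdown, at 98.1 and 101 CPM, a rise of 1.45-fold (log2 0.54, SE 0.0442, edgeR adjusted p = 1.78e-09) with no overlap of the arms. OIP5-AS1 went the other way. It stood at 126 and 124 CPM in sh-NC and, after knockdown, at 81.7 and 82.4 CPM, 1.52-fold lower (log2 -0.60, SE 0.0410, edgeR adjusted p = 8.13e-11).

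SNHG1 stood at 50.6 and 55.2 CPM in sh-NC and, after knockdown, at 43.2 and 42.5 CPM (log2 -0.30, SE 0.0554, edgeR adjusted p = 2.52e-04). MALAT1 stood at 3557 and 3524 CPM in sh-NC and, after knockdown, at 3107 and 3338 CPM (log2 -0.13, SE 0.0296, edgeR adjusted p = 0.00197). Neither overlapped between the arms, but both falls were small and neither call was stable: without a filter on low counts the adjusted p was 0.163 for MALAT1 and 0.0632 for SNHG1. Leaving out shMETTL14 replicate 1 gave MALAT1 an adjusted p of 0.172, and leaving out shMETTL14 replicate 2 gave SNHG1 one of 0.0846. Of the remaining members, NEAT1 had a log2 difference of 0.02 (405.6 and 418.0 CPM in shMETTL14 against 401 and 417 CPM), TUG1 of -0.07, GAS5 of -0.09 and ZFAS1 of -0.08, and DANCR, the least counted, of 0.23 with the widest error (SE 0.127, edgeR adjusted p = 0.221). These 5 did not pass the test, with edgeR adjusted p from 0.172 (GAS5) to 0.806 (NEAT1).

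MEG3 lies on chromosome 14 among the imprinted genes between DLK1 and DIO3, where the maternal chromosome makes the noncoding RNAs MEG3, MEG8 and MEG9 and the paternal one the proteins DLK1 and RTL1. Of the 6 genes listed there, MEG3 included, 3 rose in the input (2 by DESeq2) and 1 fell, against the 11.7% and 12.3% of all genes tested. RTL1, a retrotransposon-derived gene, had 74 and 118 counts in sh-NC and, after knockdown, 188 and 168 (log2 0.67, edgeR adjusted p = 0.0116). MEG8 had 126 and 161 counts in sh-NC and, after knockdown, 241 and 278 (log2 0.63, edgeR adjusted p = 0.00277). DLK1, which encodes a Notch-like membrane protein, fell by 0.19 (edgeR adjusted p = 0.00478). The log2 rises of MEG3, MEG8 and RTL1 ran from 0.63 to 0.67, with an SE of 0.151 for MEG8 and 0.191 for RTL1. Since the strand setting of the counting is not given in the sources used here, the RTL1 counts cannot be assigned to either strand. In sh-NC 2 of these genes were higher in IP (1 by DESeq2), MEG9 (log2 0.41) and MEG3, and 2 lower, DLK1 (log2 -1.78) and MEG8 (log2 -0.73). Of all genes tested 29.1% were higher in IP in sh-NC and 29.8% lower. MEG8 shares 108 exonic bases with MEG3.

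IP over input, the ratio of CPM in the 2 libraries of a replicate, says how a gene's fragments were enriched by the antibody relative to the average gene, not what fraction of its molecules was methylated. In sh-NC 4 members were higher in IP and 6 lower, against 29.1% and 29.8% of 22953 genes tested. In shMETTL14 the split was 4 and 6 again, against 28.9% and 29.1%. All 10 members were thus called in both arms, and they differed widely in the size of their ratios.

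MALAT1 had the highest IP over input in sh-NC, at 1.59 and 1.72 (log2 0.73, SE 0.0354, edgeR adjusted p = 8.61e-24). TUG1 followed at 1.61 and 1.53 (log2 0.65, SE 0.0418, edgeR adjusted p = 3.06e-19). The replicates of these 2 RNAs overlapped each other and lay above those of every other member. In shMETTL14 MALAT1 stood at 1.56 and 1.51, and TUG1 at 1.52 and 1.44.

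MEG3 stood at 1.09 and 1.09 in sh-NC and, after knockdown, at 1.09 and 1.10, just above the average gene (log2 0.12 in sh-NC, edgeR adjusted p = 0.00557). OIP5-AS1 stood at 1.09 and 1.12 in sh-NC and, after knockdown, at 1.24 and 1.23 (log2 0.14 in sh-NC, edgeR adjusted p = 0.00247). Scaled by library size only, the median of all genes in sh-NC moved to -0.14 on the log2 scale, MEG3 turned to -0.01 and OIP5-AS1 lost its call at 0.01. In sh-NC both were thus high only against the average gene. With that scaling OIP5-AS1 kept its call in shMETTL14 (log2 0.18, edgeR adjusted p = 2.16e-04), and MEG3 lost its own (log2 0.01). In shMETTL14 the MEG3 call was also lost without either shMETTL14 replicate, with adjusted p of 0.0587 and 0.0985. NEAT1 was below the average gene at 0.875 and 0.813 in sh-NC and, after knockdown, at 0.863 and 0.859 (log2 -0.25 in sh-NC, edgeR adjusted p = 1.21e-07). MIAT stood at 0.915 and 0.937 in sh-NC (log2 -0.11, edgeR adjusted p = 0.0446) and 0.843 and 0.860 in shMETTL14 (log2 -0.23). The sh-NC call of MIAT was marginal: the paired fit with a replicate block gave an adjusted p of 0.0633, and DESeq2 one of 0.09997.

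The 4 snoRNA hosts were all low. GAS5 stood at 0.652 and 0.572 in sh-NC and, after knockdown, at 0.706 and 0.635 (log2 -0.70 in sh-NC, edgeR adjusted p = 1.13e-16). SNHG1 stood at 0.553 and 0.525 in sh-NC and, after knockdown, at 0.609 and 0.583 (log2 -0.90 in sh-NC, edgeR adjusted p = 3.55e-18). ZFAS1 stood at 0.643 and 0.685 in sh-NC and, after knockdown, at 0.598 and 0.648 (log2 -0.59 in sh-NC, edgeR adjusted p = 1.53e-14). No replicate of these 3 hosts reached the lowest replicate of the other 6 members. DANCR was lowest, at 0.277 and 0.415 in sh-NC and, after knockdown, at 0.454 and 0.304 (log2 -1.57, SE 0.177, edgeR adjusted p = 5.96e-11). Its replicates differed widely, and its IP libraries held only 76 and 76 counts in sh-NC and, after knockdown, 92 and 77.

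The median log2 IP over input in sh-NC was -0.80 for the 4 hosts (range -1.57 to -0.59), 0.01 for the 4 nuclear-retained RNAs (range -0.25 to 0.73) and 0.40 for TUG1 and OIP5-AS1. Over all genes tested it was -0.01, and over 894 genes that RefSeq types as long noncoding it was 0.16. The hosts are short, at 2243 to 3756 exonic bases against 8755 to 22767 for the nuclear-retained members. Genes tested in the hosts' length range (4242) had a median of 0.02 and those in the nuclear-retained range (2407) one of 0.07. These lengths count all annotated exonic bases and can exceed the RNA present. In ZFAS1, rows of 93 and 87 bases held 10.6 and 16.0 times the reads per kilobase of the whole gene. The length of the RNA itself was thus not matched, and its part in the low host ratios was not tested. No test between classes was made, since genes are not replicates.

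Between shMETTL14 and sh-NC the IP over input of no member changed past the threshold. Of all genes tested 0% rose and 0.00436% fell, which is 1 gene. Each library was scaled by its own size and TMM factor, so a loss of m6A shared by most RNAs would be scaled out. Such a shared loss was therefore not tested. The paper reports a significant fall of total m6A in this cell line after METTL14 knockdown. It also reports, from MeRIP-seq of this line, genes with reduced m6A, among them YWHAH, where the loss lay in 1 region of the RNA and was also seen by MeRIP-qPCR. Counts over a whole gene mix all its regions and can dilute a change at 1 site, so such a change was not tested by them. Without adjustment for many genes edgeR gave a p under 0.05 to 1 member in each direction. These were MALAT1, lower by a log2 of -0.11 (edgeR adjusted p = 0.737), and OIP5-AS1, higher by 0.16 (edgeR adjusted p = 0.666). DESeq2 called 0 of the 10 and 0 of all genes tested. Over all genes tested edgeR gave 696 higher and 760 lower at that unadjusted threshold. The log2 changes of the other 8 lay between -0.12 (MIAT) and 0.15 (SNHG1 and DANCR). MALAT1 passed the adjusted threshold in this comparison without sh-NC replicate 1 (log2 -0.18, adjusted p = 0.0215). For the RNAs that moved most in the input, the IP libraries read alone moved the same way. MEG3 stood at 179 and 181 CPM in sh-NC IP and 286 and 285 CPM in shMETTL14 IP, while OIP5-AS1 stood at 137 and 139 CPM and then at 101 and 101 CPM. This did not hold for all members: TUG1 and ZFAS1 were lower in IP alone (edgeR adjusted p = 0.00274 and 0.0111) without a call in the input, and SNHG1, called lower in the input, did not pass in IP alone (edgeR adjusted p = 0.107).

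The table also holds rows that lie wholly inside the exons of a member, some named as numbered stretches (NEAT1_1, TUG1_2), some for genes of the opposite strand, whose reads may come from either strand. They are no isoforms and serve here as windows along the RNA, a reading added after the table was seen. Of 36 overlapping rows 24 lay wholly inside and 17 had at least 20 counts in every library, in 7 members. That minimum held for IP libraries too, so a row could be left out for being low in IP. Left out in this way were SNORD25 in SNHG1 (123 and 134 input counts, 34 and 19 IP counts in sh-NC, 19 and 14 IP counts in shMETTL14) and MIAT_exon5_1 (55 and 39 input counts, 13 and 12 IP counts in sh-NC). The counts of windows lower in IP are therefore those of a set chosen partly by IP level. Of the 17 windows 5 were higher in IP and 5 lower in sh-NC, near the 29.1% and 29.8% of all genes tested. In shMETTL14 7 were higher and 8 lower (7 and 4 by DESeq2), against 28.9% and 29.1% of all genes tested. For the change between the arms edgeR called 0 windows, with 2 higher and 0 lower at an unadjusted p under 0.05 and 0 by DESeq2. A window's reads are part of its gene's count, so no test of window against gene was made.

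TUG1 had the widest spread with several windows. TUG1_2 (chr22:30971296-30971382) had 41 and 42 input counts and 153 and 110 IP counts in sh-NC, an IP over input of 2.93 and 3.10 (log2 1.59, edgeR adjusted p = 5.42e-08). TUG1_3 (chr22:30972857-30973093) had 1021 and 927 input counts and 969 and 689 IP counts, a ratio of 0.746 and 0.881 (log2 -0.31, edgeR adjusted p = 2.90e-04). One stretch thus lay well above the ratio of the whole RNA and the other below 1, in both arms. TUG1_3 held 7.56 times the reads per kilobase of the whole gene. Of the other 3 windows TUG1_4 stood at 1.76 and 2.00, and RP3-430N8.11, a row of the opposite strand near the 3' end, at 2.68 and 2.27.

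In MEG3 the window MEG3_2 (chr14:100829350-100829454) had 107 and 103 input counts but only 27 and 22 IP counts in sh-NC, a ratio of 0.198 and 0.253 (log2 -2.17, SE 0.252, edgeR adjusted p = 1.49e-10). In shMETTL14 it had 212 and 202 input counts and 30 and 38 IP counts, a ratio of 0.195 and 0.232. Its ratio was thus low in all 4 pairs while the whole RNA stood near 1.09, and its input rose like that of the gene (log2 0.76, edgeR adjusted p = 8.19e-04). In MALAT1 a 1589-base window of the middle of the RNA (AP000769.1, a row of the opposite strand, chr11:65502034-65503622) stood at 1.11 and 1.20 in sh-NC and, after knockdown, at 1.17 and 1.08. Each of these values lay below the whole-gene ratio of 1.59 and 1.72. In the row mascRNA-menRNA, which covers the small RNA cut from the MALAT1 3' end, raw sh-NC counts were 174 and 199 for input but 80 and 49 for IP.

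The 3 NEAT1 windows, all within 1344 bases of the start, did not pass the test in sh-NC, with log2 values from -0.08 to 0.13 against -0.25 for the whole RNA. In shMETTL14 edgeR called NEAT1_1 lower in IP (log2 -0.27, adjusted p = 0.0175) and NEAT1_3 higher (log2 0.17, adjusted p = 0.00619), and NEAT1_2 did not pass. The last of the 3 windows, NEAT1_3, held 15.0 times the reads per kilobase of the whole gene. In the snoRNA hosts the window ratios were below 1 in both arms. Both ZFAS1 windows were lower in IP, ZNFX1-AS1_2 at 0.553 and 0.591 and ZNFX1-AS1_3 at 0.803 and 0.880 in sh-NC. In SNHG1, SNORD26 stood at 0.840 and 0.579, and SNORD22 at 0.914 and 0.762 without passing the test (log2 -0.27, edgeR adjusted p = 0.0727). The MIAT window MIAT_exon1 stood at 1.06 and 0.764 in sh-NC and, after knockdown, at 2.02 and 1.73, from 29 to 72 counts per library.

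Other noncoding snoRNA hosts were mostly low in IP too. Of 25 listed names 23 were in the table, where SNHG29 and SNHG32 stand under the older names LRRC75A-AS1 and C6orf48, and 21 were tested. In sh-NC 1 was higher in IP and 16 lower, against 29.1% and 29.8% of all genes tested, with a median log2 of -0.64, and in shMETTL14 1 was higher and 15 lower, with a median of -0.57. C6orf48 had 1911 and 2112 input counts and 1008 and 493 IP counts (log2 -1.52, edgeR adjusted p = 2.82e-23), and SNHG25 was lowest at -1.83 from 47 counts at most. SNHG16 was the exception at 0.19 (edgeR adjusted p = 0.00106), and EPB41L4A-AS1 the mildest of those lower at -0.22. In the input 6 of these hosts fell after knockdown (4 by DESeq2, against 12.3% of all genes tested by edgeR) and edgeR called 0 higher, with 2 higher at an unadjusted p under 0.05 and 0 by DESeq2. SNHG6 fell by 0.42 (edgeR adjusted p = 4.23e-06) and LRRC75A-AS1 by 0.31 (edgeR adjusted p = 5.38e-06), against a median of -0.04 over the 21.

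Many snoRNA hosts are known to open with a tract of pyrimidines (a TOP start), as messages of ribosomal proteins do. The first bases are therefore shown for both hosts whose RefSeq start was a C, as 30 bases of the RNA's own strand, 5' to 3', with 10 before the start and the pyrimidines from the start in capitals, for ZFAS1 at chr20:49278632-49278661 (plus strand) and for SNHG1 at chr11:62855866-62855895 (minus strand).
ZFAS1: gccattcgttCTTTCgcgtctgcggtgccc
SNHG1: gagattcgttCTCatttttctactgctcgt
Of the 9 members with a promoter entry, ZFAS1 alone had a C followed by at least 4 further pyrimidines, as 4.07% of 35116 promoters did. SNHG1 opened with 3 pyrimidines, and GAS5 and DANCR were annotated to start with a purine. These annotated starts lay 464 (ZFAS1), 163 (GAS5), 29 (SNHG1) and 10 (DANCR) bases from the gene starts of the count table. Whether the RNAs begin at other bases, with or without a TOP start, was not tested. The median log2 IP over input in sh-NC was -0.14 over 816 genes with such a start and 0.03 over 10933 genes without.

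The other long noncoding RNAs on a list of 19 names, 14 of them tested, did not share that side. In sh-NC 5 were higher in IP and 4 lower, against 29.1% and 29.8% of all genes tested. JPX, an RNA of the X-inactivation centre, was highest at 1.67 (149 and 163 input counts, 604 and 440 IP counts), and MIR17HG, which carries a cluster of growth-promoting microRNAs, was lowest at -1.46. In the input 2 rose (1 by DESeq2), MEG8 and FTX (log2 0.54, edgeR adjusted p = 0.0368), and 4 fell (2 by DESeq2), among them MIR17HG (log2 -0.50) and CRNDE (log2 -0.42). Of all genes tested 11.7% rose in the input and 12.3% fell.

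The messages of proteins that work with these RNAs were listed as well, to be read against 11.7% of all genes tested that rose and 12.3% that fell in the input and 29.1% higher and 29.8% lower in IP in sh-NC. Of 14 paraspeckle proteins, which NEAT1 gathers, 5 rose in the input and 1 fell, with TARDBP at 0.23 and HNRNPH3 at 0.21 higher and NUDT21 at -0.19. In sh-NC 7 of them were higher in IP and 5 lower, from TARDBP at 0.75 and CPSF6 at 0.60 to DAZAP1 at -0.48 and NUDT21 at -0.58. Of 8 snoRNP core proteins, which bind the snoRNAs that hosts release, 1 rose in the input (NOP58, 0.16) and 2 fell (1 by DESeq2), NOP56 at -0.17 and SNU13 at -0.13. In IP 3 were higher and 3 lower, with NOP58 at 0.58 and DKC1 at 0.40 against NOP10 at -0.52 and FBL, the methylase fibrillarin, at -0.62. Of 10 nonsense-mediated decay factors edgeR called 0 in the input, with 2 higher and 1 lower at an unadjusted p under 0.05 and 0 by DESeq2. In IP 6 of them were higher and 2 lower, with UPF2 at 0.95, SMG8 at 0.91, SMG5 at -0.21 and SMG9 at -0.55.

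Over the 8 libraries the pattern of MALAT1 was closest to that of TUG1 among the members, with a root mean square difference of 0.0649 between centred log2 CPM values. Among 9406 genes with a mean of at least 500 counts, NASP (0.0377) and TRIM56 (0.0379) were closer still. GAS5 was closest to ZFAS1 among the members (0.104) and to KCNAB2 (0.0298), DCLK1 (0.0434) and RP11-1035H13.3 (0.0440) among all. These are descriptions over 8 libraries that share the same few conditions.

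The counting limits some members. The strand setting of the counting is not given in the sources used here, and opposite-strand rows inside a member hold many counts, such as the 7308 to 13272 per library of AP000769.1 inside MALAT1. Reads of a member and RNA of the opposite strand can therefore not be told apart in shared bases. ZFAS1 shares 249 exonic bases with ZNFX1 on the opposite strand, and ZNFX1 had up to 335% of the counts of ZFAS1 over its whole length. MIAT shares 2148 bases with CTA-373H7.7, which had up to 24.1% of its counts, and OIP5-AS1 shares 470 with OIP5, which had up to 3.01%.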

How the data were processed

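MeRIP-seq libraries of SK-N-BE(2) cells, an IP and an input for each of 2 replicates of sh-NC and of shMETTL14, were grouped by their titles. Per the labels, polyadenylated RNA was fragmented, part was kept as input, and stranded libraries with molecular identifiers were made and sequenced from both ends. Raw counts per gene were deposited, and the authors' processing notes name Trimmomatic 0.36 and the build GRCh38. The aligner, counter, annotation, strand setting and treatment of duplicates are not given in the sources used here. Counts would not be independent molecules had duplicates been kept.

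The counts were tested with edgeR 4.0.16 in R 4.3.3 (filterByExpr, TMM factors, glmQLFit and glmQLFTest, Benjamini-Hochberg adjustment over all genes tested, threshold 0.05). The input change used the 4 inputs (22245 genes). IP over input in each arm and its change used 1 model of 8 libraries (22953 genes). Standard errors were taken as the size of the log2 change over the root of its F statistic. CPM values use the TMM factors of the 8 libraries, and levels per kilobase the table's exonic length. The code was tested on simulated data.

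The members, classes and lists were chosen with earlier results of these data known. Named genes are the 10 members, METTL14, rows overlapping a member and, in each list, the 2 genes with the largest called rise and fall of input and the 2 with the highest and lowest called IP over input in sh-NC. Added are the genes closest in pattern to MALAT1 and GAS5, 3 each, of which 1 with a clone name is left out. Where fewer were called, all of them are named, and list genes given in 1 comparison are not repeated in the others. Of the marker lists only input changes are given. Alternatives were DESeq2 1.42.0, other scaling and filters, each arm or the IP libraries alone, a replicate block and leaving out each replicate. The protocol pairs IP and input, which were split from 1 RNA of a replicate. The correlation of their deviations from the means was 0.0076 for sh-NC, 0.0019 for shMETTL14, and same-numbered inputs of the arms gave -0.012 (22953 genes). Replicates differed by more than sampling noise (mean chi-square per gene 2.43 to 3.99). Promoter sequences are RefSeq's for GRCh38.p14. They matched 9 of the 10 members. Exon sequences were not analysed here. A further overlap of a member, beside those given, is not reported here.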

Additional observations from a re-analysis of the deposited data

How the results depend on the processing

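Across the alternatives METTL14 kept its fall in the input (log2 -1.84 to -1.74), and MEG3, MIAT and OIP5-AS1 kept their input calls. All 4 snoRNA hosts, MALAT1, TUG1 and NEAT1 kept their calls of IP over input in both arms. Without a filter on low counts 1 member fell in the input, not 3, and the change of IP over input of MEG3 turned to -0.0026. With library size only 2 members were higher in IP in sh-NC, not 4, and MEG3 turned to -0.0065. With the replicate block, which pairs the IP and input of a replicate, MIAT in sh-NC lost its call (log2 -0.11, adjusted p = 0.0633) and no other member's call changed. MIAT in sh-NC was also lost with DESeq2, RLE factors, no filter, sh-NC alone and each replicate left out (adjusted p 0.0511 to 0.322). The change of IP over input has another meaning in the IP libraries alone, which also carry the change of RNA level: 2 members were higher there and 4 lower, with MIAT at 0.41, SNHG1 at -0.16 and OIP5-AS1 at -0.45 on the other side of 0. Leaving out 1 replicate at a time, 0 to 1 members were lower in the change of IP over input, the 1 being MALAT1 without sh-NC replicate 1. The sign of uncalled values near 0 turned: NEAT1 input change ranged from -0.0143 to 0.0426, and the change of IP over input from -0.0239 to 0.0645 for NEAT1, from -0.0132 to 0.0153 for MEG3 and from -0.174 to 0.431 for DANCR. The causes were not tested. With 2 replicates per group, precision is set by their number, and for DANCR also by its counts.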
